A study of Homo sapiens with 14 samples.

Results

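The genes described here are 10 monocyte and macrophage surface and marker genes, CD14, LYZ, CD68, ITGAM, CD163, FCGR1A, S100A8, S100A9, CD33 and CD4, chosen by name and followed through every arm of an RNA-seq study of MOLM14. All 10 were found, among 39293 gene identifiers in the table of estimated counts, and all 10 passed the filter on low counts. MOLM14 is a human acute myeloid leukaemia line of monocytic type that carries an internal tandem duplication in the receptor tyrosine kinase FLT3, and gilteritinib is an inhibitor of FLT3. The 14 libraries form 4 arms. Early resistant lines kept with fibroblast growth factor 2 (FGF2) at 10 ng/mL, and treated with gilteritinib at 100 nM for 48 hours, gave 4 libraries, numbered 1 to 4, from flasks 5 to 8. Early resistant lines kept with FLT3 ligand (FL) at the same concentration, and given the same treatment, gave 4 libraries, numbered 1 to 4, from flasks 10, 11, 12 and 9 in that order. Parental cells without any treatment gave 3 libraries. The acute arm holds 3 parental cultures given gilteritinib at 100 nM for 48 hours, 1 with no ligand, 1 with FGF2 and 1 with FL, so that each ligand state has 1 library. No early library without gilteritinib and no parental library with ligand alone was analysed here, and the labels do not say whether the flasks are separate derivations. The p-values therefore measure only the spread between these libraries, which may be technical.

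Monocytes recognise microbes and antibody-coated particles through surface receptors, attach through integrins, and destroy what they take up in lysosomes. CD14 presents bacterial lipopolysaccharide to Toll-like receptors, FCGR1A is the high-affinity receptor for immunoglobulin G, CD163 takes up haemoglobin bound to haptoglobin, and ITGAM is the alpha chain of the complement receptor integrin. CD33 is an inhibitory sialic acid receptor used as an antibody target in acute myeloid leukaemia, and CD4, best known on helper T cells, is also carried by human monocytes. LYZ is the secreted bactericidal lysozyme, CD68 is a glycoprotein of the lysosomal membrane, and S100A8 with S100A9 forms calprotectin, an abundant cytosolic protein complex of monocytes and neutrophils.

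The stretches before the start sites of 4 of these genes are shown for 2 reasons: S100A8 and S100A9 lie close together on chromosome 1 and had the largest spread of the 10 among the flasks of each early arm, and FCGR1A and ITGAM moved in opposite directions in the acute arm. Each is the 250 bases upstream of the start, 5′ to 3′ on the gene's own strand, from RefSeq on GRCh38.p14. S100A8 has 3 starts in that table and the most upstream is given. The most downstream of the 3, not printed here, is the one that matches the first S100A8 transcript of GENCODE 29. The positions are chr1:153391189-153391438 on the minus strand for S100A8, chr1:153357604-153357853 on the plus strand for S100A9, chr1:149782444-149782693 on the plus strand for FCGR1A and chr16:31259725-31259974 on the plus strand for ITGAM. Capitals mark matches to the PU.1 core GAGGAA, whose opposite strand reads TTCCTC, and to the C/EBP motif TTNCNNAA, whose opposite strand reads TTNNGNAA. PU.1, encoded by SPI1, and the C/EBP proteins are the main transcription factors of myeloid cells.
S100A8: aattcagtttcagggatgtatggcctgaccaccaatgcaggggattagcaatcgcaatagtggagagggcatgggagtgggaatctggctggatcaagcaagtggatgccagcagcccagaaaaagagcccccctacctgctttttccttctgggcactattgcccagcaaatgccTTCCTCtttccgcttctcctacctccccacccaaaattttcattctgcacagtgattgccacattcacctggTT
S100A9: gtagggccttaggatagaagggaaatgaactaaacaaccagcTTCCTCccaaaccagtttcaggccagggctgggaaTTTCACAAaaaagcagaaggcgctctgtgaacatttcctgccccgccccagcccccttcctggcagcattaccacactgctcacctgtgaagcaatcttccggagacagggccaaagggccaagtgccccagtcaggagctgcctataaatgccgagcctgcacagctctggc
FCGR1A: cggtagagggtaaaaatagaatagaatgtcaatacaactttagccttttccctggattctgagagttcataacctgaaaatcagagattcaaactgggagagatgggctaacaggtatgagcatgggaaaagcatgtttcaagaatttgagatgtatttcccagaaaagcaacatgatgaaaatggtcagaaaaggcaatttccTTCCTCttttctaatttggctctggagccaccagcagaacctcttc
ITGAM: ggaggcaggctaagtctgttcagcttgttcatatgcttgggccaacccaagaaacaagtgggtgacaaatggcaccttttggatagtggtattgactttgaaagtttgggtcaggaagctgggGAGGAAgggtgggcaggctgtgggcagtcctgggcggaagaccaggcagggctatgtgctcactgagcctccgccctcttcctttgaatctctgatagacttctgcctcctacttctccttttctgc
The TT that ends the S100A8 stretch is the first part of a C/EBP match that runs across the start. Windows of 300 bases, 250 before to 50 after a start, were in the table for 8 of the 10 genes, with 10 windows in all. The PU.1 core was present in 9 of those 10 windows, against 27.9% of the 35116 windows of all genes, and the C/EBP motif in 7 of 10, against 36.8%. The palindrome TTGCGCAA, which the C/EBP motif contains as a special case, was in 0 of 10, against 0.151%, and the AP-1 motif TGANTCA was in 2 of 10, against 7.71%. The 3 S100A8 windows overlap one another and share matches. Counted by gene, with any window holding the motif, the PU.1 core was present in 8 of the 8 genes, against 31.8% of 27305 genes, the C/EBP motif in 5 of 8, against 41.8%, and the AP-1 motif in 2 of 8, against 9.37%. Both strands were read. These are matches of letters and say nothing of binding.

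Total estimated counts per library ran from 25723575 to 33075041. Levels are given as CPM, counts relative to a library size scaled by edgeR's TMM method, and log2 fold changes with their standard errors (SE) and Benjamini-Hochberg adjusted p come from edgeR's quasi-likelihood test over 15756 genes, with 0.05 as the threshold. Pairs of libraries within an arm correlated at 0.969 to 0.988 over all tested genes. In bulk RNA, fewer cells that express a gene and less of its RNA per cell cannot be told apart. Markers of other blood cells were low or absent in all 14 libraries for 5 of 7 lists: the summed T cell list reached at most 1.5 CPM, with CD2 at 0 throughout, the B cell list 1.06 CPM, the megakaryocyte list 1.44 CPM and the dendritic cell list 4.31 CPM, and all 5 erythroid genes were at 0. The 8 neutrophil granule genes were the exception. Their sum was 2150 to 3257 CPM in the FGF2 early arm, 4814 to 6939 CPM in the FL early arm, 852 to 1297 CPM in the parental arm and 820 to 999 CPM in the acute arm, almost all of it from the primary granule genes MPO, ELANE, PRTN3, AZU1 and CTSG, while LTF and CAMP stayed at or below 0.161 CPM. The progenitor list reached 85.8 to 110.7 CPM in the acute arm, against 28.7 to 63.4 CPM in the other arms, from CD38 and KIT. The part of these shifts in the differences described below was not tested.

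Against the label of monocyte marker, the 10 genes were expressed very unevenly in MOLM14. Per kilobase of transcript, LYZ had the highest mean level in each arm, from 65.1 CPM per kb in the FGF2 early arm, where its libraries overlapped those of CD4, CD33 and CD68, to 399 CPM per kb in the FL early arm. In the acute arm LYZ, at 115 to 262 CPM per kb, overlapped CD68, at 127 to 147 CPM per kb. CD4, CD33 and CD68 came next in every arm, with arm means between 33.7 and 134 CPM per kb. In parental cells CD68 at 44.3 to 46.7 and CD4 at 43.5 to 45.3 CPM per kb overlapped, so their order was not resolved, while LYZ above them and CD33 below them stood apart. ITGAM, FCGR1A, S100A8 and S100A9 formed a middle tier by arm mean, whose order changed with the arm. By library this tier was not separate. S100A9 reached 97.4 CPM per kb in FL early, above every CD4, CD33 and CD68 library there, and 48.0 in FGF2 early, within the CD33 and CD68 ranges. S100A8 reached 44.1 in FL early, within the CD33 range. In the acute arm S100A9, at 0.298 to 0.796 CPM per kb, overlapped CD14, at 0.255 to 0.435. CD163 and CD14 were lowest, with arm means of at most 0.359 CPM per kb, so that 2 of the surface receptors most used to define monocytes and macrophages were close to the detection limit. CD14 rested on estimated counts of 0 to 25.2 per library and CD163 on 10.9 to 37.7.

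**Figure D1:**
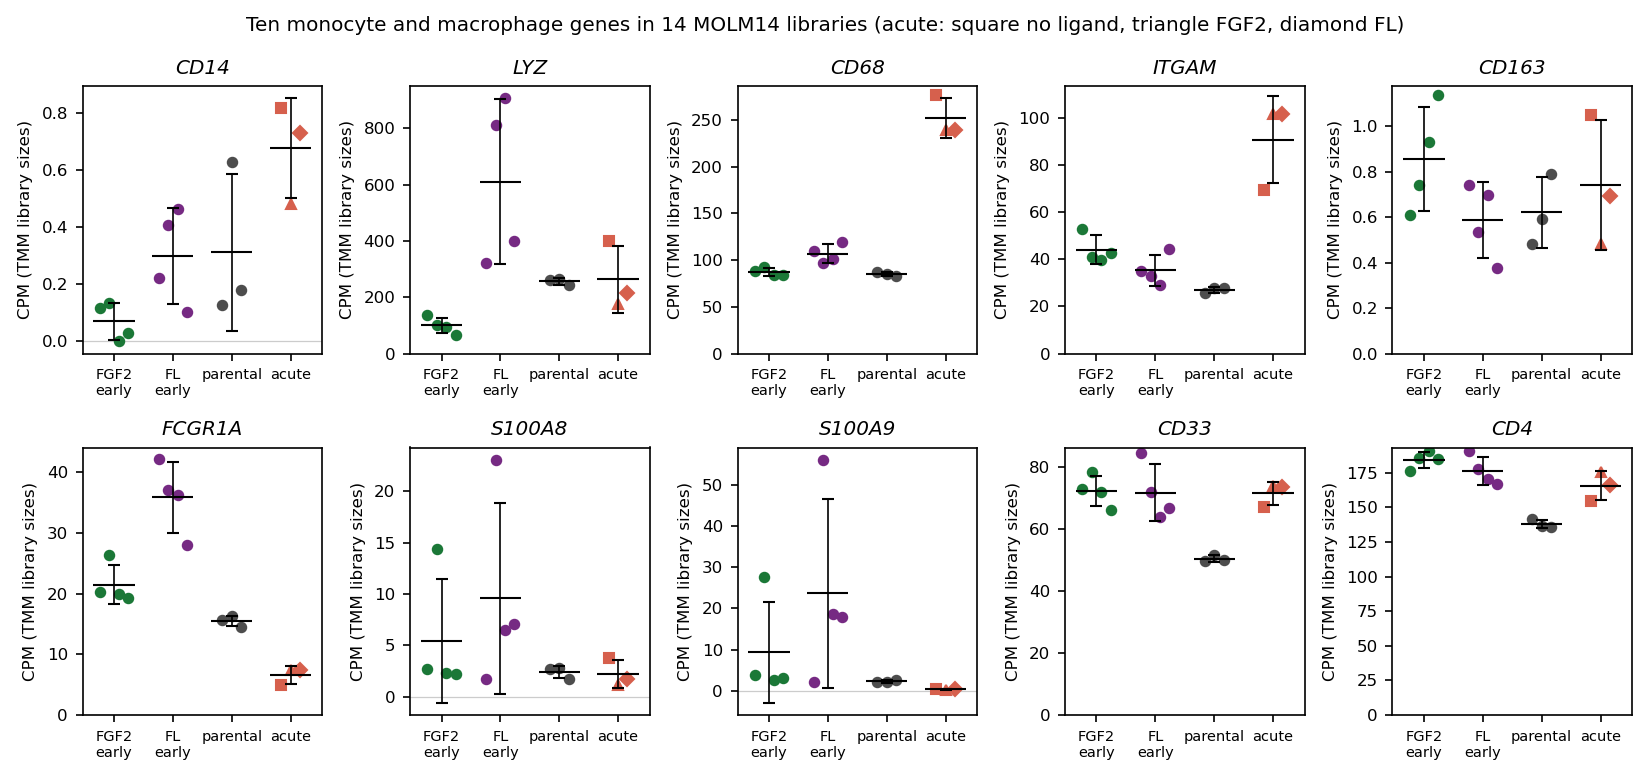
Levels of the 10 genes in each of the 14 libraries, in CPM with TMM library sizes on linear axes that differ between panels; points are libraries, horizontal bars the arm means and whiskers 1 SD (n = 4, 4, 3 and 3). CD68 and ITGAM were highest in the 3 acute libraries and FCGR1A lowest there, LYZ separated the FL from the FGF2 early flasks, and S100A8 and S100A9 were spread widely among the early flasks.

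CD14, the lipopolysaccharide co-receptor, read 0.116, 0.135, 0 and 0.03 CPM in FGF2 early libraries 1 to 4 and 0.223, 0.41, 0.466 and 0.103 CPM in FL early libraries 1 to 4. It read 0.129, 0.628 and 0.18 CPM in the parental libraries and 0.82, 0.481 and 0.731 CPM in the acute libraries with no ligand, FGF2 and FL. The 3 acute values lay above all 8 early values, parental library 2 lay within the acute range, and the other 2 parental libraries lay within the early range. CD14 was lower in the early lines than in the acute arm by a log2 fold change of -2.17 ± 0.57 (SE, n = 8 and 3; edgeR adjusted p = 0.00406). This gene exceeded the filter level of 0.344 CPM in 0 of 4 FGF2 early, 2 of 4 FL early, 1 of 3 parental and 3 of 3 acute libraries. The arm where it was highest was thus the only one in which every library exceeded that level. Neither early arm nor the acute arm differed from parental cells for CD14 at adjusted p under 0.05, with edgeR adjusted p of 0.0616 for FGF2 early, 0.979 for FL early and 0.176 for acute. Without parental library 2 the acute difference was 2.10 with an adjusted p of 0.0388, and without FL early library 4 the FGF2 early difference was -2.06 with an adjusted p of 0.0496. FGF2 early minus FL early was -2.03 ± 0.74 (edgeR adjusted p = 0.0872), or -2.31 with an adjusted p of 0.0389 without FL early library 4.

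Among 12 further pattern recognition genes, 10 were tested. In the acute arm, where 62.6% of all tested genes were called, 7 of them were higher and 1 lower than in parental cells, including TLR1, which senses bacterial lipopeptides, at 1.45 ± 0.21 on the log2 scale (edgeR adjusted p = 3.19e-05), TLR4, the lipopolysaccharide receptor that CD14 serves, at 1.95 ± 0.44 (adjusted p = 0.00153) and TLR2 at -0.64 ± 0.12 (adjusted p = 3.49e-04). The FGF2 early arm, with 30.4% of all genes called, had 0 higher and 2 lower, TLR1 at -1.17 ± 0.20 (adjusted p = 7.72e-04) and TLR2 at -0.37 ± 0.11 (adjusted p = 0.0221). The FL early arm, with 20.7% of all genes called, had 1 higher, TLR4 at 1.53 ± 0.42 (edgeR adjusted p = 0.0210), and 0 lower.

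FCGR1A, the high-affinity immunoglobulin G receptor, was higher than in parental cells in both early arms and lower in the acute arm. It measured 20.3, 26.4, 20 and 19.3 CPM in the FGF2 early libraries, 42.2, 37.1, 36.2 and 28.1 CPM in the FL early libraries, 15.6, 16.3 and 14.5 CPM in the parental libraries, and 4.95, 7.46 and 7.43 CPM in the acute libraries. The 4 arms did not overlap: all FL early libraries lay above all FGF2 early ones, these above the parental ones, and these above the acute ones. The log2 fold change against parental cells was 1.21 ± 0.17 in FL early (SE, n = 4 and 3; edgeR adjusted p = 3.32e-04), 0.47 ± 0.16 in FGF2 early (adjusted p = 0.0416) and -1.23 ± 0.18 in acute (n = 3 and 3; adjusted p = 3.68e-05). FGF2 early was below FL early by -0.74 ± 0.15 (n = 4 and 4; adjusted p = 0.00525), and the early lines together were 4.21-fold above the acute arm (log2 2.07 ± 0.16, adjusted p = 6.92e-08). The FGF2 early difference from parental cells was the least stable of these. It passed in 17 of 25 alternatives and was lost, at adjusted p of 0.0515 to 0.123, without FGF2 early library 1, 2 or 3, without FL early library 3 or without any 1 parental library; without FGF2 early library 2, the highest of its arm, it was 0.37 with an adjusted p of 0.103.

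FCGR1A has near-identical copies, and how the estimated counts were divided between them is not given in the sources used here, so its values are uncertain to that extent. The copy FCGR1BP was at 4.10 ± 1.65 CPM in FGF2 early, 9.80 ± 0.77 in FL early, 2.93 ± 0.54 in parental and 0.712 ± 0.644 in acute (SD, n = 4, 4, 3 and 3). Its FGF2 early libraries, at 1.95 to 5.40 CPM, overlapped its parental ones, at 2.32 to 3.25 CPM. FCGR1CP was at 0 to 0.252 CPM. Where reads are shared out between the copies, the copies are no independent check of FCGR1A.

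Other Fc receptor genes, the copies of FCGR1A aside, did not follow FCGR1A in the acute arm. Of 7 listed, 6 were matched by symbol and 5 were tested. The unmatched gene, FCGR1B, is the copy FCGR1BP given above. Its mean was lower in acute (0.712 CPM) than in parental cells (2.93 CPM), and it entered no list count. Of the 5 tested, 4 rose against parental cells in the acute arm with 0 lower, where 32.3% of all genes were called higher: FCGRT, which recycles immunoglobulin G, by 2.10 ± 0.27 on the log2 scale (edgeR adjusted p = 1.23e-05), FCGR2A by 1.67 ± 0.23, FCER1G, the signalling chain that FCGR1A needs at the surface, by 2.07 ± 0.56, and the inhibitory receptor FCGR2B by 1.48 ± 0.40. In the FGF2 early arm FCGR2B fell by 2.25 ± 0.39 (edgeR adjusted p = 8.81e-04) and FCGR2A fell by 1.14 ± 0.22 (adjusted p = 0.00153), whereas FCER1G rose by 2.48 ± 0.53 (adjusted p = 0.00345). FCER1G rose further in FL early, by 4.18 ± 0.55 (adjusted p = 2.51e-04), from 0.456 ± 0.086 CPM in parental cells to 8.30 ± 5.87 CPM (SD, n = 3 and 4). FCGR3A, the receptor of non-classical monocytes, stayed at or below 0.103 CPM.

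CD163, the haemoglobin scavenger receptor of tissue macrophages, showed no resolved difference. Its levels were 0.611, 0.743, 0.93 and 1.14 CPM in FGF2 early, 0.744, 0.536, 0.698 and 0.376 CPM in FL early, 0.482, 0.591 and 0.792 CPM in parental, and 1.05, 0.481 and 0.693 CPM in acute libraries. All arms overlapped. The FGF2 early minus FL early difference was 0.54 on the log2 scale with a 95% interval of -0.18 to 1.26, and the 6 edgeR adjusted p for CD163 ran from 0.324 to 0.904. Of 8 other scavenger receptor genes 6 were tested, and CD36, which binds oxidised lipids, was the one that changed in every arm: it fell by 1.70 ± 0.26 in FGF2 early (edgeR adjusted p = 3.89e-04) and by 1.80 ± 0.26 in FL early (adjusted p = 5.14e-04), and rose by 1.46 ± 0.27 in acute (adjusted p = 3.07e-04), each against parental cells. MRC1, the macrophage mannose receptor, was at 0 in all 14 libraries.

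ITGAM rose most in the acute arm. It measured 69.3, 101 and 101 CPM in the acute libraries with no ligand, FGF2 and FL, against 25.6, 27.7 and 27.9 CPM in parental cells, 52.9, 41, 39.6 and 42.5 CPM in FGF2 early and 35.1, 32.8, 28.9 and 44.2 CPM in FL early. All 3 acute libraries lay above all others, and all 8 early libraries lay above all 3 parental ones. The acute arm was 3.35-fold above parental cells (log2 1.74 ± 0.17, n = 3 and 3; edgeR adjusted p = 7.12e-07), and FGF2 early was 1.63-fold above (0.70 ± 0.16, n = 4 and 3; adjusted p = 0.00471). For FL early the difference was 0.38 ± 0.16 and missed the threshold (edgeR adjusted p = 0.105). The early lines together were 0.54 ± 0.14 above parental cells (adjusted p = 0.0123), a call lost without parental library 1 (0.50, adjusted p = 0.0660), and -1.20 ± 0.13 below the acute arm (adjusted p = 1.64e-06). FGF2 early minus FL early was 0.32 ± 0.15 (edgeR adjusted p = 0.167), and without FL early library 4 it was 0.45 with an adjusted p of 0.0358.

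The beta chain that pairs with ITGAM, ITGB2, changed differently. It stood at 282 ± 31 CPM in parental, 332 ± 26 in acute, 373 ± 33 in FGF2 early and 526 ± 132 in FL early cells (SD, n = 3, 3, 4 and 4), and of these the FL early rise of 0.90 ± 0.17 on the log2 scale passed (edgeR adjusted p = 0.00243). Of 7 integrin partners 6 were tested. ITGAX, the alpha chain of complement receptor 4, rose by 2.23 ± 0.32 in acute cells (edgeR adjusted p = 2.74e-05), and ITGAL, the alpha chain of the lymphocyte function antigen, rose by 0.73 ± 0.10 there (adjusted p = 1.36e-05) but fell by 1.06 ± 0.09 in FL early (adjusted p = 8.11e-06). ITGA4 fell by 0.43 ± 0.09 in acute cells (adjusted p = 0.00112) and rose by 0.77 ± 0.09 in FGF2 early (adjusted p = 5.43e-05).

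CD33 was higher than in parental cells by nearly the same amount in each gilteritinib-treated arm. Its levels were 49.6, 51.6 and 49.8 CPM in parental cells, 72.6, 78.1, 71.7 and 66.1 CPM in FGF2 early, 84.4, 71.8, 63.8 and 66.5 CPM in FL early, and 67.1, 73.7 and 73.3 CPM in acute cells. All 11 treated libraries lay above the 3 parental ones, and the 3 treated arms overlapped one another. The log2 fold changes against parental cells were 0.52 ± 0.09 (FGF2 early; edgeR adjusted p = 9.69e-04), 0.51 ± 0.09 (FL early; adjusted p = 0.00214) and 0.50 ± 0.10 (acute; adjusted p = 4.06e-04). These comparisons share the 3 parental libraries. The early minus acute difference was 0.01 with a 95% interval of -0.16 to 0.18, and FGF2 early minus FL early was 0.01 with an interval of -0.17 to 0.19. CD33 was called against parental cells under every alternative tried for the 3 treated arms.

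CD4 behaved much as CD33 did, at a higher level. It measured 141, 137 and 136 CPM in parental cells, 177, 185, 190 and 185 CPM in FGF2 early, 190, 177, 170 and 167 CPM in FL early, and 155, 176 and 166 CPM in acute cells, so that again the 11 treated libraries lay above the 3 parental ones. The log2 fold changes were 0.42 ± 0.06 (FGF2 early; n = 4 and 3; edgeR adjusted p = 3.22e-04), 0.35 ± 0.06 (FL early; adjusted p = 0.00189) and 0.26 ± 0.07 (acute; adjusted p = 0.00317). With the acute arm limited to its library with no ligand, the last was 0.14 with an adjusted p of 0.187. The early minus acute difference of 0.12 ± 0.06 missed the threshold (edgeR adjusted p = 0.0649) and passed in 11 of 26 alternatives, among them without FGF2 early library 1 or 2, FL early library 1 or 4, or the acute FGF2 library (0.14 to 0.18, adjusted p from 0.0127 to 0.0453). Over the same libraries the T cell genes reached at most 1.10 CPM for CD3D, 0.591 CPM for CD8A, 0.385 CPM for CD3G, 0.154 CPM for LCK, 0.0656 CPM for CD3E and 0 CPM for CD2.

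Of 11 siglecs and inhibitory receptors beside CD33, 7 were tested, with 1 higher and 2 lower in FGF2 early, 2 higher and 0 lower in FL early, and 3 higher and 0 lower in acute cells, against 30.4%, 20.7% and 62.6% of all genes called. SIGLEC10, an inhibitory siglec, fell in FGF2 early by 2.10 ± 0.45 (edgeR adjusted p = 0.00323), and PTPN6, the phosphatase that inhibitory receptors recruit, fell there by 0.34 ± 0.11 (adjusted p = 0.0262). LAIR1, an inhibitory collagen receptor, rose in each arm against parental cells, by 0.61 ± 0.07 in FGF2 early (edgeR adjusted p = 4.19e-05), 0.41 ± 0.07 in FL early (adjusted p = 0.00125) and 1.68 ± 0.07 in acute (adjusted p = 2.01e-10). Of 15 other monocyte and macrophage markers 12 were tested, with 6 higher and 1 lower in the acute arm, 1 higher and 5 lower in FGF2 early, and 3 higher and 1 lower in FL early. In the acute arm CSF1R, the receptor for macrophage colony-stimulating factor, rose by 3.40 ± 0.34 on the log2 scale (edgeR adjusted p = 9.79e-07), from 13.4 ± 0.5 to 142 ± 36 CPM (SD, n = 3 and 3). TYROBP, a signalling adaptor of myeloid receptors, rose in the acute arm by 2.45 ± 0.16 (edgeR adjusted p = 9.23e-09). TYROBP also rose in both early arms, by 1.33 ± 0.15 in FGF2 early (adjusted p = 3.38e-05) and 1.34 ± 0.15 in FL early (adjusted p = 5.04e-05), whereas CSF1R was at 8.98 ± 1.68 and 16.3 ± 7.0 CPM there and was not called. The genes lower in FGF2 early included VCAN, a proteoglycan of classical monocytes, which fell by 5.80 ± 1.07 (edgeR adjusted p = 0.00132), the tetraspanin CD9, which fell by 2.02 ± 0.36 (adjusted p = 0.00110), and AIF1, an actin-binding protein of macrophages, which fell by 0.79 ± 0.15 (adjusted p = 0.00180). Low VCAN was not particular to FGF2 early: it stood at 0.774 ± 0.705 CPM in acute and 7.38 ± 1.38 CPM in parental cells (SD, n = 3 and 3). In FL early it was at 3.57 ± 3.56 CPM (SD, n = 4). C1QA, a complement gene of tissue macrophages, stayed at or below 0.0684 CPM.

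CD68, the lysosomal glycoprotein, had the smallest adjusted p of the 10 genes in the acute arm. It measured 277, 239 and 240 CPM in the acute libraries and 87.7, 84.7 and 83.2 CPM in parental cells, against 88.5, 93, 84.5 and 84.2 CPM in FGF2 early and 109, 96.3, 101 and 119 CPM in FL early. The acute libraries lay far above all 11 others, the FGF2 early libraries overlapped the parental ones, and the FL early ones sat just above both. Acute cells were 2.96-fold above parental cells (log2 1.56 ± 0.09; edgeR adjusted p = 2.20e-09), and early cells were -1.38 ± 0.07 below acute cells (adjusted p = 4.41e-10). FL early was 0.32 ± 0.08 above parental cells (edgeR adjusted p = 0.0122), and FGF2 early was -0.28 ± 0.07 below FL early (n = 4 and 4; adjusted p = 0.0204). For the early lines together the difference from parental cells was 0.18 ± 0.07 (edgeR adjusted p = 0.0679), and it passed without FL early library 2 (0.21, adjusted p = 0.0369) and without the acute library with no ligand (0.18, adjusted p = 0.0404). The calls for FL early depended on single libraries. That against parental cells was lost without parental library 2 (0.32, adjusted p = 0.0530) and without FL early libraries 1 and 4 together (0.22, adjusted p = 0.0690), and that between the early arms without FGF2 early library 3 or 4 (adjusted p = 0.0624 and 0.0650), without FL early libraries 1 and 4 (-0.17, adjusted p = 0.118) and with scaling by total counts (-0.23, adjusted p = 0.0870).

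LYZ, with the highest mean level per kilobase of the 10 in each arm, separated the 2 early arms. Its levels were 135, 103, 93.8 and 66.5 CPM in FGF2 early and 321, 811, 908 and 399 CPM in FL early, against 260, 265 and 243 CPM in parental cells and 400, 176 and 213 CPM in acute cells. Every FL early library lay above every parental library and every FGF2 early library lay below. FGF2 early was 6.12-fold below FL early (log2 -2.61 ± 0.35, n = 4 and 4; edgeR adjusted p = 4.37e-04), -1.36 ± 0.36 below parental cells (adjusted p = 0.0111), and FL early was 1.25 ± 0.37 above parental cells (adjusted p = 0.0292). The last call was lost, at adjusted p of 0.0634 to 0.0920, without FL early library 2 or 3, without any 1 parental library, or with no filter on low counts. With the FGF2 and FL early lines pooled, the early minus parental difference was -0.06 with a 95% interval of -0.74 to 0.63. The acute arm differed from parental cells by 0.04 ± 0.38 (edgeR adjusted p = 0.934).

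Of 11 further lysosomal and secretory genes, all tested, 8 rose and 0 fell in the acute arm against parental cells, where 32.3% of all genes were called higher, among them the proteases CTSS by 1.17 ± 0.07 on the log2 scale (edgeR adjusted p = 3.63e-09), CTSB by 1.005 ± 0.066 (adjusted p = 1.27e-08) and CTSD by 2.48 ± 0.19 (adjusted p = 5.35e-08), and PSAP, the precursor of the saposins, by 1.47 ± 0.11 (adjusted p = 5.30e-08). Of the same 11 genes 5 were lower and 0 higher in FGF2 early than in FL early, where 13.6% of all genes were called and 9.56% were lower. CTSL was at 0.789 ± 0.366 CPM in FGF2 early and 7.25 ± 3.47 CPM in FL early (SD, n = 4 and 4), a log2 difference of -3.18 ± 0.39 (edgeR adjusted p = 2.07e-04), and GRN, the progranulin gene, differed by -0.69 ± 0.11 (adjusted p = 0.00107). The counts for this list were 4 higher and 3 lower in FGF2 early and 6 higher and 1 lower in FL early, against parental cells, with 30.4% and 20.7% of all genes called. The neutrophil granule sum given above, like LYZ, was higher in each FL early than in each FGF2 early library, and its part in the LYZ difference was not tested.

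S100A8 and S100A9, the 2 chains of calprotectin, had the largest coefficients of variation of the 10 genes within each early arm, 111% and 132% in FGF2 early and 97.4% and 97.0% in FL early. In parental cells they were at 23.6% and 16.3%, below CD14 at 88.0%. S100A8 measured 2.65, 14.4, 2.31 and 2.25 CPM in FGF2 early libraries 1 to 4 and 1.67, 23.1, 6.45 and 7.08 CPM in FL early libraries 1 to 4, against 2.73, 2.77 and 1.76 CPM in parental and 3.77, 1.13 and 1.69 CPM in acute cells. S100A9 measured 3.84, 27.7, 2.69 and 2.97 CPM in FGF2 early and 2.01, 56.2, 18.7 and 17.9 CPM in FL early, against 1.99, 2.14 and 2.7 CPM in parental and 0.459, 0.172 and 0.346 CPM in acute cells. The same libraries were high for both: FL early library 2, from flask 11, and FGF2 early library 2, from flask 6. FL early library 1, from flask 10, was the lowest of its arm for both and lay within the parental range for S100A9. The highest library exceeded the lowest 13.8-fold for S100A8 and 28.0-fold for S100A9 in FL early, and 1.57-fold and 1.35-fold in parental cells.

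**Figure D2:**
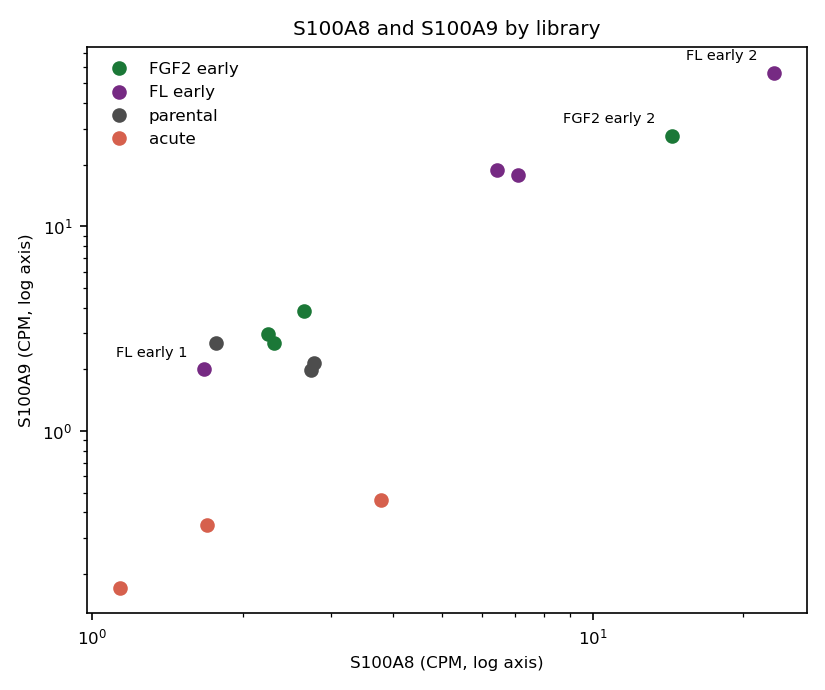
S100A8 (x) against S100A9 (y) in the 14 libraries, in CPM with TMM library sizes on log axes; each point is a library, coloured by arm. FGF2 early library 2 (14.4 and 27.7 CPM) sits apart from the other 3 of its arm, FL early library 1 (1.67 and 2.01 CPM) sits among the parental libraries, and the 3 acute libraries lie lowest for S100A9 (0.172 to 0.459 CPM).

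For S100A9 the log2 fold change against parental cells was 3.38 ± 1.03 in FL early (n = 4 and 3; edgeR adjusted p = 0.0331) and 2.70 ± 0.95 in the early lines together (n = 8 and 3; adjusted p = 0.0461). The call for the early lines together passed in 11 of 25 alternatives, with adjusted p from 0.00225 to 0.269. It was lost, among others, with limma-voom (1.96, adjusted p = 0.269), without a low-count filter (adjusted p = 0.132), without FGF2 early library 2 (1.94, adjusted p = 0.0567), without FL early library 2, 3 or 4, and without any 1 parental or acute library. The FL early call passed in 19 of 25, with adjusted p from 2.03e-04 to 0.163, and was lost without FL early library 2 (2.50, adjusted p = 0.0794), without any 1 parental library (0.0810 to 0.118), with no low-count filter (0.105) and with limma-voom (2.69, adjusted p = 0.163). In FGF2 early the difference was 2.02 ± 0.99 (edgeR adjusted p = 0.136), and it dropped to 0.49 without library 2.

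The early lines together were 44.8-fold above the acute arm for S100A9 (log2 5.49 ± 1.23, n = 8 and 3; edgeR adjusted p = 0.00130), with all 8 early libraries above all 3 acute ones. Without FGF2 early library 2 the difference was 4.76, the lowest value with 1 library left out. The call was lost with limma-voom (4.78, adjusted p = 0.0957) and with the acute arm limited to its library with no ligand (5.03, adjusted p = 0.0749). The acute values were below all parental values, by -2.78 ± 1.33, but missed the threshold (edgeR adjusted p = 0.0842), and passed with DESeq2 (-2.83, adjusted p = 0.0163), in a fit of those 2 arms alone (-2.82, adjusted p = 2.58e-04), without FGF2 early library 2 (-2.82, adjusted p = 0.0231) and without FL early library 1 (-2.82, adjusted p = 0.0452). The estimated S100A9 counts in the acute libraries were 13.8, 4.96 and 8.97.

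S100A8 was called in none of the 6 comparisons by edgeR, with adjusted p from 0.0711 to 0.906, and 2 of those 6 had an unadjusted p under 0.05, 0.0351 for FL early against parental cells and 0.0487 for early against acute cells. DESeq2 called the second (1.72, adjusted p = 0.0398), and edgeR did so without FL early library 1 (1.92, adjusted p = 0.0262). In FGF2 early the difference from parental cells was 1.15 ± 0.83, and -0.0017 without library 2. Without FGF2 early library 2 and FL early library 1, an alternative chosen after their values were seen, S100A8 was 2.34 above parental cells in FL early (adjusted p = 0.0111) and FGF2 early was -2.35 below FL early (adjusted p = 0.0151), while S100A9 in FGF2 early was -3.29 below FL early (adjusted p = 7.10e-04). With all libraries the S100A8 difference between the early arms was -0.83 ± 0.73 (edgeR adjusted p = 0.505) and that of S100A9 -1.36 ± 0.82 (adjusted p = 0.314), or -2.90 with an adjusted p of 0.0276 without FGF2 early library 2.

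The balance of the 2 chains also differed between arms. Per kilobase, the level of S100A9 divided by that of S100A8 was 1.31, 1.74, 1.06 and 1.20 in FGF2 early, 1.09, 2.21, 2.63 and 2.29 in FL early, 0.661, 0.701 and 1.39 in parental, and 0.110, 0.137 and 0.185 in acute libraries. S100A9 was thus below S100A8 in all 3 acute libraries and above it in all 8 early ones, and this ratio does not depend on scaling between libraries. No test was run on it. Of 7 further S100 genes 6 were tested. S100A6 rose in acute cells by 1.92 ± 0.14 on the log2 scale (edgeR adjusted p = 3.14e-08), to 297 ± 40 CPM (SD, n = 3). S100P was at 3.27 ± 2.18 CPM in FL early and 0.269 ± 0.216 CPM in parental cells (SD, n = 4 and 3), with libraries that overlapped. It would not have passed the filter on low counts without early libraries, where it was highest, so no test of it is given. S100A12, which marks classical monocytes with this pair, was at or below 0.410 CPM throughout.

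Within the acute arm each ligand state is 1 library, so the following values have no replicate check. With FGF2, LYZ was 0.440 and S100A8 0.301 of their levels with no ligand. With FL the same ratios were 0.533 and 0.449. ITGAM was 1.46 times and FCGR1A 1.51 times as high with FGF2 as with no ligand, and 1.46 and 1.501 times with FL. For CD68 the ratios were 0.864 and 0.866, for CD33 1.10 and 1.09 and for CD4 1.13 and 1.07. Both sets of ratios share the 1 library with no ligand.

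In the acute arm 4 of the 10 genes were higher than in parental cells (CD68, ITGAM, CD33, CD4) and 1 lower (FCGR1A), in a comparison where 62.6% of the 15756 tested genes were called, 32.3% higher and 30.3% lower. Their libraries did not overlap for 6 of the 10, against 69.4% of all genes, so that both shares were below the background. The median log2 fold change of the 10 was 0.26, against 0.07 for all tested genes. Against the acute arm the early lines had 2 higher (FCGR1A, S100A9) and 3 lower (CD14, CD68, ITGAM), where 66.0% of all genes were called, 32.1% higher and 33.9% lower. The libraries did not overlap for these same 5, against 50.2% of all genes, and the medians were -0.03 and -0.04. Because both comparisons use the same 3 acute libraries, they are not independent.

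Against parental cells, the early lines together had 5 of 10 higher (ITGAM, FCGR1A, S100A9, CD33, CD4) and 0 lower, with 29.8% of all genes called, 13.7% higher and 16.1% lower. Libraries were apart for 4 of the 10, all but S100A9, against 22.3% of all genes, and the medians were 0.45 for the 10 genes and 0.01 for all. In FGF2 early 4 were higher (ITGAM, FCGR1A, CD33, CD4) and 1 lower (LYZ), where 30.4% of all genes were called, 13.3% higher and 17.1% lower. The same 5 had libraries apart, against 48.2% of all genes, with medians of 0.47 and 0.01. In FL early 6 were higher (LYZ, CD68, FCGR1A, S100A9, CD33, CD4) and 0 lower, where 20.7% of all genes were called, 10.9% higher and 9.76% lower. Libraries were apart for 6, with ITGAM in place of S100A9, against 31.1% of all genes, and the medians were again 0.45 and 0.01. Both early arms were set against the same parental libraries.

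Between the early arms 3 genes were lower in FGF2 early than in FL early (LYZ, CD68, FCGR1A) and 0 higher, where 13.6% of all genes were called and 9.56% were called lower. The same 3 had libraries apart, against 17.3% of all genes. The medians were -0.51 for the 10 genes and 0.00 for all.

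**Figure D3:**
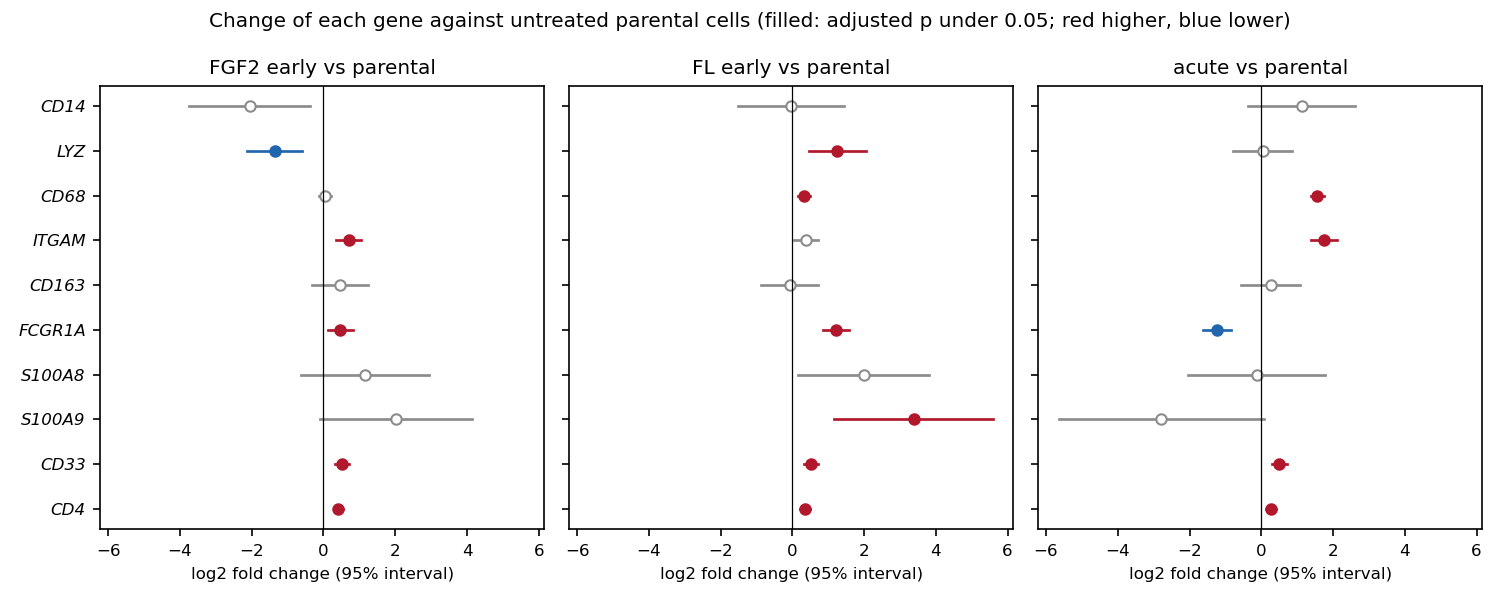
log2 fold change of each of the 10 genes against untreated parental cells (x, with 95% intervals) in the FGF2 early, FL early and acute arms; filled points passed adjusted p under 0.05, red higher and blue lower. LYZ lies on opposite sides of 0 in the 2 early arms (-1.36 and 1.25), FCGR1A is above 0 in both early arms and at -1.23 in the acute arm, CD33 sits near 0.5 in all 3, and the intervals of CD14, S100A8 and S100A9 are the widest.

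The 9 lists of related genes hold 89 genes beside the 10, of which 88 were matched by symbol, all but FCGR1B, and 73 were tested. Against parental cells the acute arm had 41 higher and 5 lower, in a comparison that called 62.6% of all genes, 32.3% higher and 30.3% lower, with a median of 1.005, where the 10 genes had 0.26 and all genes 0.07. FL early had 22 higher and 8 lower (median 0.25, 20.7% of all genes called), and FGF2 early had 11 higher and 19 lower (median -0.12, 30.4% called). FGF2 early against FL early had 5 higher and 24 lower (median -0.51, 13.6% called), and the early lines against acute cells had 9 higher and 42 lower (median -0.74, 66.0% called). The tested genes of the lists include S100P and FCN1, which passed the filter on low counts only through early libraries, where they were highest. The counts and medians that involve early lines therefore rest in part on the values that let these genes in. Of the 10 monocyte transcription factors tested, 2 were higher and 2 lower in FGF2 early, 4 and 3 in FL early and 5 and 1 in acute cells, against parental cells. SPI1, which encodes PU.1, rose in FGF2 early by 0.46 ± 0.11 (edgeR adjusted p = 0.00662), in FL early by 0.89 ± 0.11 (adjusted p = 1.74e-04) and in acute cells by 1.01 ± 0.12 (adjusted p = 3.97e-06), whereas IRF8, a regulator of monocyte and dendritic cell fate, fell in FGF2 early by 1.70 ± 0.15 (adjusted p = 9.50e-06) and in FL early by 1.10 ± 0.15 (adjusted p = 3.66e-04) and stood at 879 ± 29 CPM in acute and 936 ± 36 CPM in parental cells (SD, n = 3 and 3). CEBPD, a C/EBP factor, rose in FL early by 2.71 ± 0.34 (edgeR adjusted p = 1.82e-04) and in FGF2 early by 1.63 ± 0.33 (adjusted p = 0.00240). EGR1, also on this list, was at 143 ± 11 CPM in parental, 101 ± 8 in FGF2 early, 19.3 ± 4.8 in FL early and 24.8 ± 19.5 in acute cells (SD, n = 3, 4, 4 and 3).

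**Figure D4:**
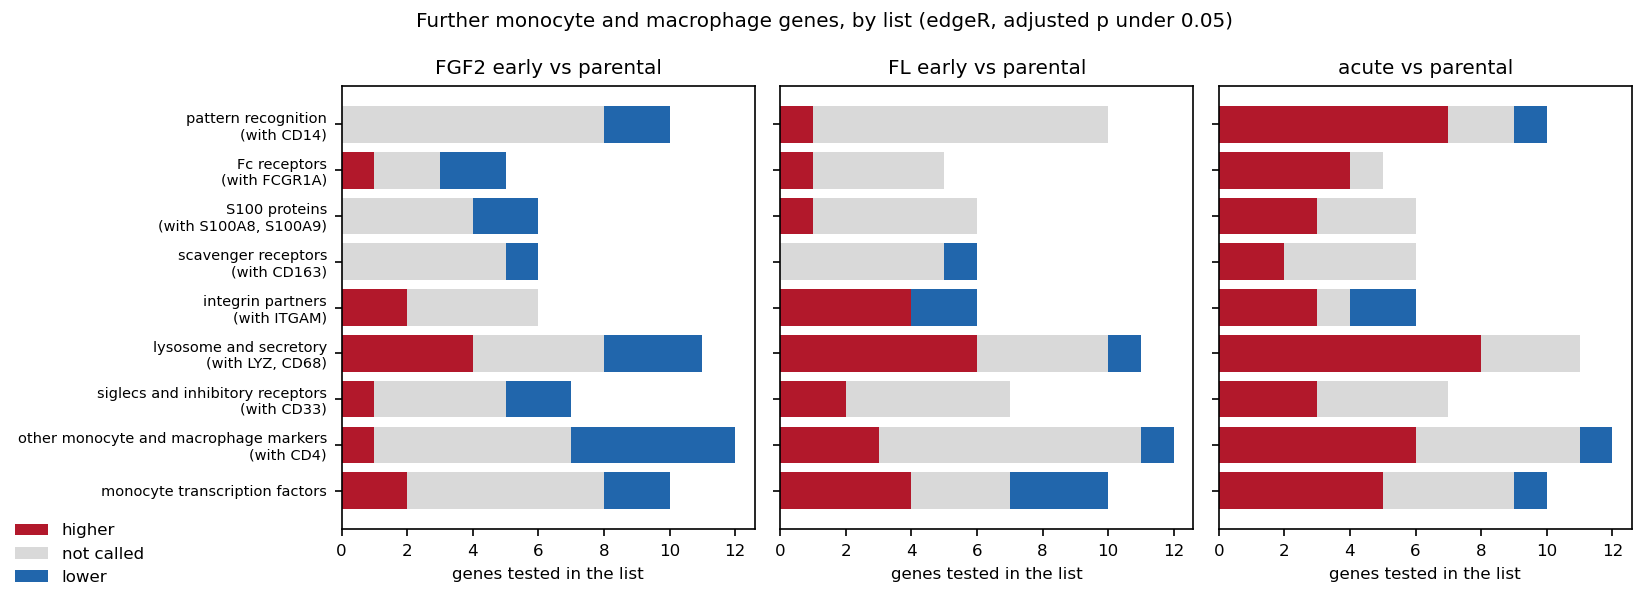
Genes tested in each of the 9 lists of related monocyte and macrophage genes (x, number of genes), called higher (red), called lower (blue) or not called (grey) against parental cells in the FGF2 early, FL early and acute arms. Red dominates the acute panel (41 of 73 higher, 5 lower), and blue is most frequent in the FGF2 early panel (19 lower, 11 higher).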

How the data were processed

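RNA from 14 MOLM14 libraries was sequenced as stranded poly(A) libraries, per the labels' protocols. The authors deposited estimated counts per gene from kallisto, with GRCh37 given as the build, per the submitters' processing notes. Versions, the transcript annotation and how transcripts were summed to genes are not given in the sources used here. The 10 genes and all lists were chosen with earlier results of these data known. Of 39293 Ensembl identifiers, 33353 (84.9%) matched a symbol in a separate gene name reference. GENCODE 29 gave transcript lengths (longest coding transcript). The unmatched identifiers held 4.63% to 5.53% of the counts. 0 value columns lacked a sample.

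Estimated counts were rounded and filtered with filterByExpr (minimum count 10, total 15), leaving 15756 genes. edgeR 4.0.16 (R 4.3.3) fitted the 4 arms together without a block, with TMM scaling and robust quasi-likelihood. The 6 comparisons were adjusted by Benjamini-Hochberg over all genes at 0.05. The acute arm pooled its 3 ligand states. Named were all 10 genes, and from each list up to 4 genes with the smallest adjusted p. FCGR3A, MRC1, C1QA and S100A12, untested and near 0, were named after their values were seen, as were the copies of FCGR1A. Alternatives were other scalings, no filter or at least 1 CPM in 3 libraries, DESeq2 1.42.0, limma-voom 3.58.1, the replicate block, a fit of the compared arms alone, the acute library with no ligand alone, and omission of libraries. Omission of FGF2 early library 2 with FL early library 1 was chosen after seeing the data. The fit was tested on simulated counts with the same dispersion for all genes and without genes of low mean count. That check does not cover genes as variable as S100A8 and S100A9 or as low as CD14. Promoters were from RefSeq (GRCh38.p14).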

Additional observations from a re-analysis of the deposited data

Results flagged for a closer look

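In FGF2 early library 2, from flask 6, FCGR1A (26.4 CPM), S100A8 (14.4 CPM) and S100A9 (27.7 CPM) stood further above the other 3 libraries of that arm than the 95% critical value of Dixon's gap test allows. The gaps to the next library, as a share of the arm's range, were 0.863, 0.967 and 0.954, and the next libraries were at 20.3, 2.65 and 3.84 CPM. These were 3 of 20 gene and arm groups tested, where chance gives about 5%, and all 3 came from this library. The FGF2 early lines responded differently from the FL early lines against the shared parental libraries for 3 genes, by the test of the difference itself: LYZ by -2.61, CD68 by -0.28 and FCGR1A by -0.74 on the log2 scale (edgeR adjusted p = 4.37e-04, 0.0204 and 0.00525, n = 4 and 4), with no overlap of the 4 against 4 libraries for any of them. Of all tested genes, 13.6% were called in this comparison and 17.3% had libraries that did not overlap. The CD68 call was lost in 4 of 25 alternatives.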

How the results depend on the processing

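Leaving out each library in turn changed the number of the 10 genes called to 3 to 5 for early against parental, 5 to 7 for early against acute, 4 to 6 for FGF2 early against parental, 3 to 6 for FL early against parental, 5 to 6 for acute against parental and 2 to 5 for FGF2 early against FL early cells. The 3 came without parental library 1 and without parental library 2, in that order, where 2784 and 1512 of all genes were called against 4700 and 3259 with every library, and the 5 for the early arms came without FL early library 4 (CD14 and ITGAM added, 3274 genes called against 2137) and also without FGF2 early library 2 and FL early library 1 together (S100A8 and S100A9 added). Replicate numbers did not pair the libraries: same-numbered libraries correlated at -0.0939 to 0.0658 in their deviations from arm means, and with a replicate block the numbers called were 4, 5, 5, 6, 5 and 3, and S100A9 for early against acute cells was 3.89. All 3 acute libraries carry replicate number 1, so the block fit puts the whole acute arm in 1 block. Its comparisons in that fit therefore depend on how library 1 of the other arms deviates. Of 840 recalculated log2 fold changes with 1 library left out, 770 kept sign and side of the threshold, 30 lost the call, 15 gained one and 25 changed sign, and of 646 under other settings 595, 14, 20 and 17 did so. No value that changed sign was called. For early against parental cells LYZ was 0.085 with the replicate block, 0.20 without FL early libraries 1 and 4, and 0.053 without FGF2 early library 2 and FL early library 1. For early against acute cells CD33 was -0.11 with upper quartile scaling, -0.00079 with the 1 CPM filter and -0.0070 without FGF2 early library 2 and FL early library 1, LYZ 0.21 and CD163 0.025 without FL early libraries 1 and 4, and LYZ 0.047 without FGF2 early library 2 and FL early library 1. S100A8 in FGF2 early against parental cells was -0.0019 without the latter pair. CD14 in FL early against parental cells was 0.11 with limma-voom, 0.41 with the replicate block, 0.51 without FL early libraries 1 and 4 and 0.10 without the other pair. For acute against parental cells LYZ was -0.051 with limma-voom, and S100A8 was 0.47 with the replicate block and 0.61 with the library with no ligand alone. With 1 library left out the sign-changing ranges were, for early against parental, LYZ -0.18 to 0.061; for early against acute, CD163 -0.28 to 0.28, LYZ -0.30 to 0.34 and CD33 -0.032 to 0.056; for FGF2 early against parental, S100A8 -0.0017 to 1.41; for FL early against parental, CD14 -0.41 to 0.96 and CD163 -0.23 to 0.13; for acute against parental, LYZ -0.40 to 0.25, CD163 -0.084 to 0.48 and S100A8 -0.78 to 0.17; and for FGF2 early against FL early, CD33 -0.042 to 0.10 and S100A8 -1.995 to 0.086. The cause was not tested. Upper quartile scaling moved the median of all genes from -0.04 to -0.16 for early against acute cells and from 0.07 to 0.18 for acute against parental cells. CD14, CD163 and acute S100A9 rest on too few counts for small differences to be detectable.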

Other observations

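The genes whose log2 CPM most resembled each member's over the 14 libraries were ranked by Pearson's r among 9197 tested genes with a mean log2 CPM of at least 3. The points share their libraries and fall into 4 arms, so r is a description. For CD68 they were GORASP1 (0.990), GADD45B (0.986) and TOM1 (0.986), and GADD45B stood at 145 CPM in acute and 29.4 CPM in parental cells, as arm means. For ITGAM they were YBEY (0.973), C22orf46P (0.969) and BBC3 (0.967), the last at 36.8 CPM in acute and 9.32 CPM in parental cells. For FCGR1A they were OAF (0.974), MLC1 (0.972) and AGTRAP (0.963), all 3 lowest in the acute arm, with MLC1 at 154 CPM there and 532 CPM in FL early. LYZ was nearest to FAM107B (0.918), TSPAN14 (0.913) and S100A11 (0.901), and S100A9 to TKT (0.935), TESC (0.915) and TMBIM6 (0.913). CD4 and CD33 shared a neighbour, GALNS, a lysosomal sulphatase (0.911 and 0.906), at 26.0 CPM in parental cells and 38.7 to 40.4 CPM in the other arms. No gene passed 0.790 for S100A8 or 0.783 for CD163.

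FCN1, a secreted lectin of classical monocytes, was at 0 in all 3 parental and all 3 acute libraries and reached 1.32 CPM in FGF2 early and 2.62 CPM in FL early libraries. It passed the filter on low counts through early libraries alone, so no test of it is given. FCN1 and S100P are still among the tested genes in the list counts and medians above. FCN1 was singled out after its values were seen.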
